A study of Sus scrofa with 17 samples.

Results

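IFI44 (ENSSSCG00000003763) and IFI44L (ENSSSCG00000027660), a pair of neighbouring interferon-induced genes, were followed in porcine kidneys perfused with or without extracellular vesicles (EVs). They are 2 of the 26560 genes of the count table and were taken by identifier. Both were chosen by their measured expression, as genes higher in G3 than in G1, so that contrast is described here without a test. RNA-seq was performed on biopsies of 17 kidneys snap frozen at the end of perfusion, 5 in G1, 6 in G2 and 6 in G3. All kidneys came from wild type female Dutch Landrace pigs aged between 6 months and 1 year, and all had 32 min of warm ischemia, 24 h of hypothermic machine perfusion (HMP) and 5 h of normothermic machine perfusion (NMP). G1 was injected with PBS-1X vehicle in both phases, G2 with EVs of porcine urine progenitor cells in HMP only, and G3 with these EVs in HMP and again in NMP. Each animal gave 1 kidney and the NMP circuit carried autologous blood cells, so a biopsy can hold RNA of blood leukocytes as well as of kidney cells.

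Interferons are secreted proteins that cells release on sensing foreign or misplaced nucleic acid. They bind paired receptors, the kinases JAK1 and TYK2 then phosphorylate STAT proteins, and these join IRF9 to switch on interferon-stimulated genes. IFI44 and IFI44L are such genes. They encode related cytoplasmic proteins that are induced together by type I interferon in many cell types, and both have been described to bind the co-chaperone FKBP5 and to restrain the interferon response.

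On Sscrofa11.1 (RefSeq annotation) IFI44 lies on chromosome 6 from 134634679 to 134649857 and IFI44L from 134660230 to 134679212, with 10372 bp and 0 annotated genes between them. The files give no transcript lengths, so levels are compared between kidneys and not between the genes.

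Total counts per kidney ran from 19270046 to 24736473, and the members were counted from 418 to 2408 times per kidney. Expression is given as CPM, a gene's count scaled to a common library size with edgeR's TMM normalization. The authors' sample codes form 3 runs of consecutive numbers (code series A, B and C) whose meaning is not stated. G1 has 2 kidneys in series A, 2 in B and 1 in C. G2 has 2 in A and 4 in C, and G3 has 1 in A, 1 in B and 4 in C. The defining markers of kidney epithelium were present, and the 5 proximal tubule markers summed to at least 4412 CPM in every kidney.

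Both genes were at like levels in G1 and G2, and higher in G3, where 4 kidneys stood well above the other 2. IFI44 was at 26.2, 32.1, 35.3, 35.5 and 48.7 CPM in G1 kidneys 1 to 5. In G2 its lowest value was 26.3 CPM, its median 40.4 CPM and its highest 43.9 CPM. In G3 it was at 66.9, 51.0, 94.6, 44.2, 76.5 and 85.1 CPM in kidneys 1 to 6. G3 kidneys 3, 6, 5 and 1 were the highest of all 17, while G3 kidney 4 was below G1 kidney 5 and barely above the highest G2 kidney. G1 kidneys averaged 35.6 ± 8.26 CPM (SD, n = 5), the G2 kidneys 38.5 ± 6.89 CPM (SD, n = 6) and the G3 kidneys 69.7 ± 19.6 CPM (SD, n = 6).

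IFI44L was at 21.0, 24.4, 28.6, 23.4 and 41.4 CPM in G1 kidneys 1 to 5. In G2 all 6 kidneys lay close together, from 22.5 to 29.3 CPM with a median of 23.2 CPM. In G3 it was at 60.02, 30.2, 65.3, 30.5, 62.2 and 51.9 CPM in kidneys 1 to 6. The same G3 kidneys, 1, 3, 5 and 6, were the 4 highest of all, and kidneys 2 and 4 were within 2 CPM of the highest G2 kidney. Between them and the 4 high kidneys stood G1 kidney 5. G1 kidneys averaged 27.8 ± 8.12 CPM (SD, n = 5), the G2 kidneys 24.5 ± 2.74 CPM (SD, n = 6) and the G3 kidneys 50.02 ± 15.9 CPM (SD, n = 6). The spread was smallest in G2, at 11.2% of the mean against 29.2% in G1 and 31.7% in G3.

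**Figure D1:**
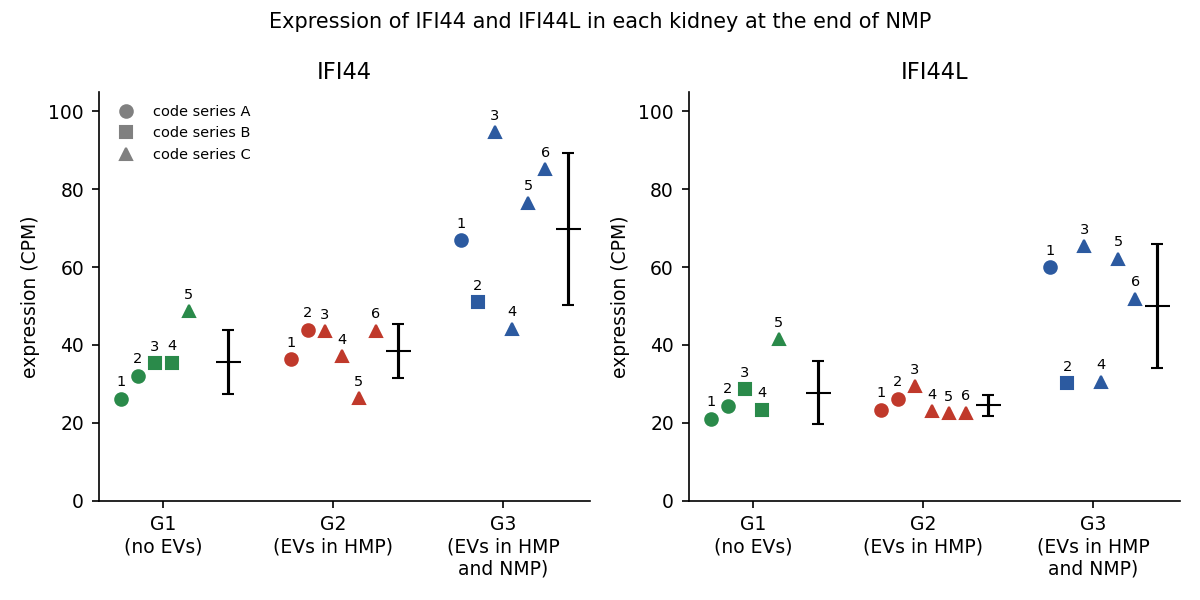
Expression in CPM (vertical axis) of IFI44 and IFI44L in each kidney of G1, G2 and G3, with the kidney number beside each point, the code series as its shape, and the mean ± SD as a bar beside each group. G3 kidneys 1, 3, 5 and 6 are the 4 highest for both genes, and G1 kidney 5 is the highest of its group at 48.7 and 41.4 CPM.

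The contrast of G3 with G1, which chose the genes, is given as a description. The edgeR log2 fold change was 0.96 (standard error 0.19) for IFI44 and 0.84 (standard error 0.23) for IFI44L. For IFI44, 5 of 6 G3 kidneys were above every G1 kidney, and for IFI44L 4 of 6. Under TMM, G1 kidney 5 alone made the groups overlap, since the other 4 G1 kidneys were below every G3 kidney for both genes. With library size alone as the scale, 4 of 6 G3 kidneys were above every G1 kidney for IFI44 and 3 of 6 for IFI44L. On that scale G1 kidney 5 was not the only cause of overlap for IFI44L. Over all genes tested, 0.124% had every G3 kidney above every G1 kidney, and neither member was among them. As background of the contrast that chose the pair, 0.00778% of 25719 genes had an edgeR adjusted p under 0.05. The share with an unadjusted p under 0.05 was 4.73% (1.94% with a higher level in G3). DESeq2 called 0.185% of the 16730 genes to which it gave an adjusted p. Split by code series, G3 exceeded G1 in mean log2 CPM of IFI44 by 1.20 in A, 0.53 in B and 0.57 in C, and of IFI44L by 1.40, 0.22 and 0.28. These splits rest on a single G3 kidney in A and in B and on a single G1 kidney, kidney 5, in C.

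Whether EVs in HMP alone went with a higher level was asked by comparing G2 with G1. G2 kidneys were not used to choose the genes, but the G1 kidneys were. The log2 fold change was 0.11 (standard error 0.17) for IFI44 and -0.18 (standard error 0.16) for IFI44L, both within the spread between kidneys (edgeR quasi-likelihood test, Benjamini-Hochberg adjusted p = 0.923 and 0.850, unadjusted p = 0.502 and 0.286). Of the 6 G2 kidneys, 0 were above every G1 kidney for either gene, and 0.0817% of genes had all of them above. In this comparison 0% of the 25699 genes tested had an adjusted p under 0.05, 3.51% had an unadjusted p under 0.05 (1.42% with a higher level in G2), and DESeq2 called 1 gene (0.0039%, HSPA6, not a member) and limma voom 0. The direction differed between code series. In series A, IFI44 was higher in G2 by 0.46 and IFI44L by 0.13 in mean log2 CPM. In series C, where G1 is kidney 5 alone, the differences were -0.40 and -0.77, and without that kidney the fitted log2 fold change of IFI44L was 0.0089.

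Whether the second injection, in NMP, went with a higher level than HMP alone was asked by comparing G3 with G2. The G3 kidneys were used to choose the genes, so the choice favours a higher G3 here and the values are not independent evidence of it. The log2 fold change was 0.86 (standard error 0.18) for IFI44 and 1.04 (standard error 0.19) for IFI44L. The edgeR adjusted p was 0.948 and 0.706, and neither member passed, nor did any other gene of this comparison (0% of 25701 genes). Without adjustment p was 0.000152 for IFI44 and 2.87e-05 for IFI44L, which put them at ranks 4 and 1 of all genes, where 3.13% had an unadjusted p under 0.05 (1.61% with a higher level in G3). DESeq2 called 3 genes (0.0117%), among them IFI44L with an adjusted p of 0.00983 but not IFI44, with an adjusted p of 0.0893, and limma voom called 0.

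All 6 G3 kidneys were above all 6 G2 kidneys for both genes under TMM, by a narrow margin. For IFI44 the lowest G3 kidney was at 44.2 CPM and the highest G2 kidney at 43.9 CPM, and for IFI44L these were at 30.2 and 29.3 CPM. With library size alone as the scale the groups overlapped, and 4 of 6 G3 kidneys were above every G2 kidney for IFI44 and 5 of 6 for IFI44L. Under TMM, 15 genes, 0.0584% of those tested, had every G3 kidney above every G2 kidney, and they included both members and 3 of 48 other interferon-stimulated genes (DDX60, SP110 and TAP2). Split by code series, G3 exceeded G2 in mean log2 CPM of IFI44 by 0.74 in A and 0.97 in C, and of IFI44L by 1.28 and 1.05. Series C has 4 kidneys of each group, series A has 1 of G3 and 2 of G2, and series B has none of G2. G1 kidney 5 was above G3 kidneys 2 and 4 for IFI44L and above G3 kidney 4 for IFI44.

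The ratio of the paralogs was taken within each kidney as counts of IFI44L per count of IFI44, which does not depend on library size. It ran from 0.519 in G2 kidney 6 to 0.897 in G3 kidney 1. In G1 it was 0.802, 0.759, 0.811, 0.659 and 0.850 in kidneys 1 to 5. In G2 it ran from 0.519 to 0.854 with a median of 0.631, and in G3 from 0.592 to 0.897 with a median of 0.691. The groups overlapped. G1 averaged 0.776 ± 0.0730 (SD, n = 5), while G2 averaged 0.651 ± 0.113 (SD, n = 6) and G3 averaged 0.715 ± 0.118 (SD, n = 6). Reads shared by the paralogs could be split between them by the counting, which would touch this ratio, and how they were treated is not stated.

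On the log2 scale the ratio was lower in G2 than in G1 by a difference of -0.27 (two-sided exact permutation test, p = 0.0736) and higher in G3 than in G2 by 0.14 (two-sided exact permutation test, p = 0.329). Adjusted over these 2 tests, p was 0.147 and 0.329, so neither difference passed the threshold. G2 kidney 5, which had the lowest IFI44 of its group, set the highest ratio there. Without it the difference between G2 and G1 was -0.35 (exact permutation test, adjusted p = 0.0317). Of the 11 tests that each left out 1 kidney this alone passed, and the other 10 did not. Between G3 and G1, given as a description, the difference was -0.13. By code series, the log2 ratio of G2 less that of G1 was -0.34 in A and -0.37 in C. That of G3 less that of G2 was 0.54 in A and 0.09 in C, with a mean of 0.31 over these series against 0.14 without the split. That of G3 less that of G1 was 0.20 in A, -0.31 in B and -0.29 in C.

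**Figure D2:**
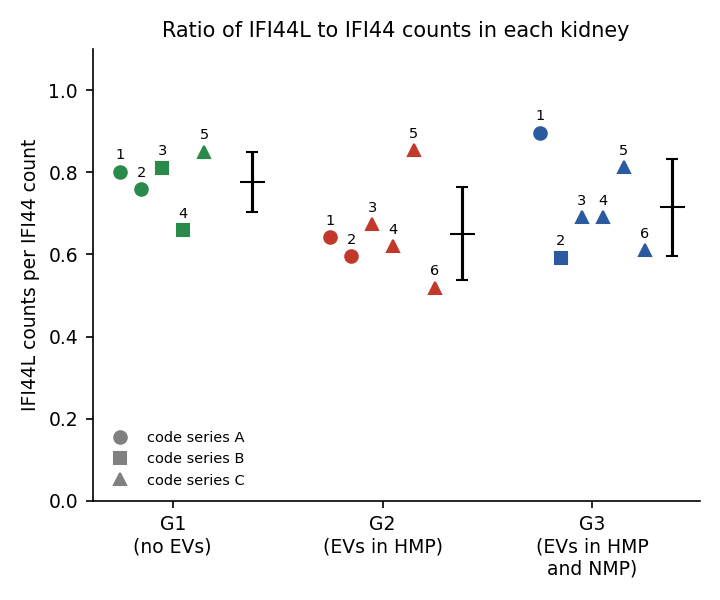
Counts of IFI44L per count of IFI44 (vertical axis) in each kidney, with the kidney number beside each point, the code series as its shape and the mean ± SD of each group as a bar. The groups overlap, with means of 0.776, 0.651 and 0.715 in G1, G2 and G3, and G2 kidney 5 lies above the other G2 kidneys at 0.854.

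From kidney to kidney the paralogs moved together. With group means subtracted, the log2 CPM of IFI44 and IFI44L had a Pearson r of 0.83 over 17 kidneys (100000 permutations within groups, p = 0.00037) and a Spearman rho of 0.78 (permutation p = 0.00098). Over the 11 correlations computed, the adjusted p was 0.00203 and 0.00539. Without the 2 kidneys farthest from the median of IFI44, r was 0.85. Within G3 alone r was 0.89 (n = 6, exact permutation p = 0.0611) and rho 0.77 (n = 6, exact permutation p = 0.103), and r was 0.085 without kidneys 2 and 4, so it rests on these low kidneys. Within G2 r was 0.56 (n = 6, exact permutation p = 0.15) and rho 0.49 (n = 6, exact permutation p = 0.356), and r was 0.48 without kidneys 1 and 5. Both genes share each kidney's library and scale factor. Among the other 13709 genes with a mean of at least 1 CPM, 3 followed each member more closely than its paralog did.

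**Figure D3:**
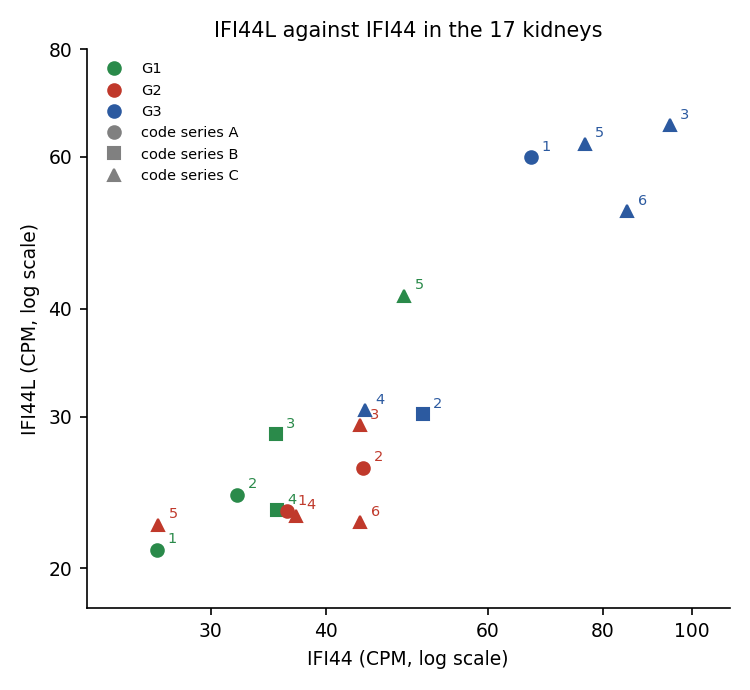
IFI44L against IFI44 in CPM, both on log axes, in the 17 kidneys, with groups as colours, code series as shapes and kidney numbers beside the points. The kidneys form a rising band, with G3 kidneys 1, 3, 5 and 6 at its top and G3 kidneys 2 and 4 just above the G2 kidneys.

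Each member was set beside a list of 48 other interferon-stimulated genes, all of them tested. In G2 against G1 the list had a median log2 fold change of 0.27, with 40 of 48 values above 0, beside a median of -0.0054 over all genes tested. IFI44L, at -0.18, was below 45 of the 48, and IFI44, at 0.11, below 31. No list gene had an edgeR adjusted p under 0.05, and neither DESeq2 nor limma voom called any. At an unadjusted p under 0.05 there were 2 of 48, beside 3.51% of all genes tested (1.42% with a higher level in G2). Both were higher in G2, BST2, which tethers virions and vesicles to the membrane, and ISG15, a ubiquitin-like modifier. In G3 against G2 the order was the other way round. The list had a median of 0.70, beside -0.0018 over all genes, and IFI44L, at 1.04, was above 45 of the 48 while IFI44, at 0.86, was above 39. Here too edgeR called 0 list genes. At an unadjusted p under 0.05 there were 31 of 48, all higher in G3, beside 3.13% of all genes (1.61% with a higher level in G3). DESeq2 called 1 (DDX60, a helicase of the antiviral response) and limma voom 0.

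In G3 against G1 the list's median was 0.88, beside -0.021 over all genes, and 47 of 48 values were above 0. IFI44 was above 32 of the 48 and IFI44L above 23. By edgeR 0 list genes passed. At an unadjusted p under 0.05 there were 39 of 48, all higher in G3, beside 4.73% of all genes (1.94% with a higher level in G3). DESeq2 called 11, all higher, beside 0.185% of the genes it adjusted over, and limma voom 0. The lowest and highest list members were IFI35 at -0.05 and BST2 at 2.08. The 3 comparisons share kidneys, and so are not independent of each other, and the list was chosen with earlier results of these kidneys known.

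**Figure D4:**
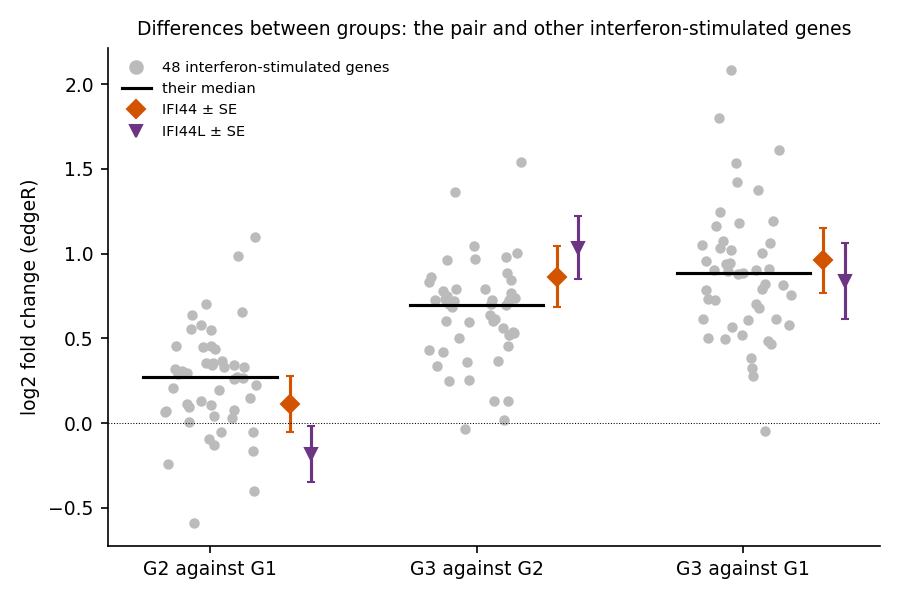
edgeR log2 fold changes (vertical axis) of 48 interferon-stimulated genes (grey points, median as a line) and of IFI44 and IFI44L (± standard error) in the 3 comparisons. IFI44L lies at -0.18 near the lower end of the list in G2 against G1 and at 1.04 near its upper end in G3 against G2.

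Averaged over the same 48 genes, log2 CPM was 4.66 ± 0.370 for the G1 kidneys (SD, n = 5), 4.86 ± 0.394 for those of G2 (SD, n = 6) and 5.52 ± 0.455 for those of G3 (SD, n = 6). With group means subtracted, IFI44 followed it over 17 kidneys with r = 0.82 (permutation p = 0.00023, adjusted p = 0.00203) and rho = 0.84 (permutation p = 0.00028, adjusted p = 0.00308), and with r = 0.79 without the 2 farthest kidneys. IFI44L followed it with r = 0.66 (permutation p = 0.00997, adjusted p = 0.0366) and rho = 0.69 (permutation p = 0.0102, adjusted p = 0.0373), and with r = 0.55 without the 2 farthest kidneys. Whether the 2 correlations differ was not tested. G2 kidney 6 had the highest list mean of its group, 5.41, with IFI44 among the upper G2 kidneys at 43.6 CPM and IFI44L among the lowest at 22.6 CPM. G3 kidney 4, at 4.98, and G3 kidney 2, at 5.06, had the lowest list means of G3, and G1 kidney 5 had the highest of G1, at 5.08.

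**Figure D5:**
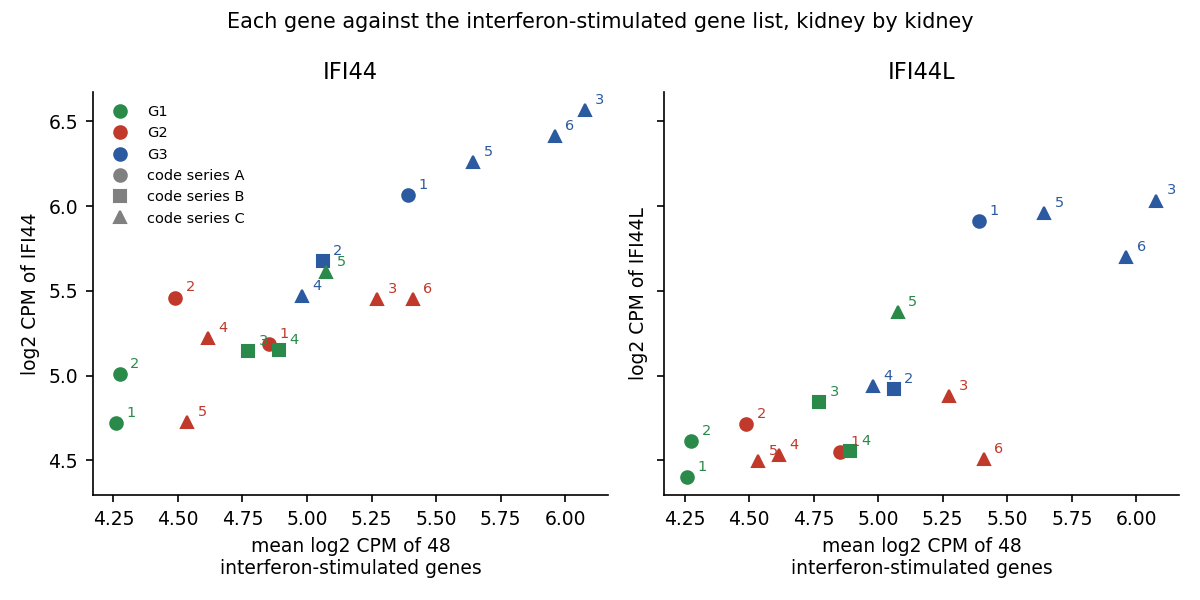
log2 CPM of IFI44 and of IFI44L (vertical axes) against the mean log2 CPM of 48 interferon-stimulated genes (horizontal axes) in the 17 kidneys, with groups as colours and code series as shapes. IFI44 rises along the list mean (r = 0.82 with group means subtracted), and G2 kidney 6, with a list mean of 5.41, has IFI44L among the lowest values.

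Genes most like the pair were ranked by the lower of their correlations with both members over the 17 kidneys, group means subtracted. Of the first 10, 5 were on the interferon-stimulated list and 7 have a symbol, and the first, ENSSSCG00000058619, has none (r = 0.78 with IFI44 and 0.87 with IFI44L). EIF2AK2, the kinase that halts translation on double-stranded RNA, had r = 0.75 with IFI44 and 0.81 with IFI44L. HERC5, the ligase that joins ISG15 to proteins, had r = 0.87 and 0.72, and IRF7, the transcription factor that amplifies interferon production, 0.81 and 0.75. PARP12, an ADP-ribosyltransferase, had r = 0.78 and 0.71, and IFIT2, an RNA-binding antiviral protein, 0.79 and 0.71. HSH2D, an adaptor of blood cells, had r = 0.83 and 0.75. Of these 10 genes, 9 had a log2 fold change above 0 in G3 against G2. The exception was ENSSSCG00000026520 (r = 0.76 with IFI44 and 0.71 with IFI44L), at -0.53. In G3 against G1 it was at -1.15 (edgeR unadjusted p = 0.0484, adjusted p = 0.813). These r values describe 17 kidneys that also share library depth, and carry no test. Over all 13709 genes the median of the lower r was -0.10, and over the 47 list genes compared it was 0.48.

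Along the pathway that leads to these genes, no gene of the ligand, receptor, transducer, sensor and inhibitor lists passed the adjusted threshold in any comparison with edgeR, DESeq2 or limma voom. Of the interferon ligands, 4 of 8 could be matched, and IFNB1, IFNE, IFNG and IFNK each averaged under 1 CPM in every group. At these low levels their log2 fold changes were 1.27, -0.45, 0.90 and 1.37 in G2 against G1 and -0.14, -0.52, -1.06 and -0.48 in G3 against G2, and 0 had an unadjusted p under 0.05 in any comparison. All 6 receptor genes were detected, and edgeR, DESeq2 and limma voom called 0 of them in each comparison. IFNAR1 and IFNAR2, which form the type I receptor, had log2 fold changes of 0.19 and 0.28 in G2 against G1 and of 0.13 and 0.11 in G3 against G2. IFNGR1 and IFNGR2, the receptor of interferon gamma, had 0.03 and -0.03 in G2 against G1 and 0.17 and 0.17 in G3 against G2. IFNLR1 and IL10RB, the receptor of interferon lambda, had 0.04 and 0.34 in G2 against G1 and -0.0043 and 0.03 in G3 against G2. Without adjustment, IFNAR2 and IL10RB had a p under 0.05 in G2 against G1 and 0 receptor genes did in G3 against G2. The same 2 did in G3 against G1, at log2 fold changes of 0.37 and 0.34. Over all genes, 3.51% had an unadjusted p under 0.05 in G2 against G1, 3.13% in G3 against G2 and 4.73% in G3 against G1. These shares stand beside the receptor counts and those of the lists that follow.

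Among the 7 signal transducers 0 passed with edgeR, DESeq2 or limma voom. STAT2 and IRF9, partners in the complex that drives IFI44 and IFI44L, were the 2 with an unadjusted p under 0.05 in G3 against G2, with log2 fold changes of 0.44 and 0.43. In G2 against G1 they were at 0.05 and 0.01, and 0 transducers had an unadjusted p under 0.05. JAK1, JAK2 and TYK2, the receptor kinases, had 0.14, 0.07 and -0.11 in G2 against G1 and 0.05, 0.06 and 0.08 in G3 against G2, and STAT3 had 0.09 and -0.04. The median of this list was 0.06 in G2 against G1, where IFI44 was at 0.11 and IFI44L at -0.18, and 0.08 in G3 against G2, where they were at 0.86 and 1.04. STAT2 and IRF9 were again the 2 transducers with an unadjusted p under 0.05 in G3 against G1, at 0.47 and 0.43. Of the 11 sensors and adaptors, 0 were called by these tools, and their medians were 0.02 and 0.03. In G2 against G1 1 was higher and in G3 against G2 1 was lower at an unadjusted p under 0.05, and 1 was higher in G3 against G1 (CGAS, a sensor of cytosolic DNA, at 0.70). Of 7 inhibitors 0 were called, with medians of 0.18 in G2 against G1 and -0.01 in G3 against G2, and 1 and 0 had an unadjusted p under 0.05. In G3 against G1 2 inhibitors did, USP18, which removes ISG15 from proteins and blocks the type I receptor, at 1.05 and ISG15 at 0.95, and both are also on the list of 48 genes.

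FKBP5, the described binding partner of both proteins, averaged 43.0 ± 6.02 CPM in the G1 kidneys (SD, n = 5), 63.6 ± 10.3 CPM in those of G2 (SD, n = 6) and 64.4 ± 24.8 CPM in those of G3 (SD, n = 6). The log2 fold change of FKBP5 was 0.57 in G2 against G1, with an unadjusted p under 0.05 but an edgeR adjusted p of 0.84, and 0.02 in G3 against G2. In G3 against G1 it was 0.58, with an unadjusted p of 0.0151 and an edgeR adjusted p of 0.813. Whether its pattern across the groups differs from that of the members was not tested. The subunits of the IKK complex, which FKBP5 is described to bind, and NFKBIA, an inhibitor of NF-kB that this complex phosphorylates, were tested as well, together with the related kinase IKBKE. The catalytic subunits IKBKB and CHUK, the regulatory subunit IKBKG, and IKBKE had log2 fold changes between -0.39 and 0.05 in G2 against G1 and between 0.02 and 0.52 in G3 against G2, and NFKBIA had -0.13 and 0.03. By edgeR, DESeq2 and limma voom 0 of these 6 genes were called in either comparison, and at an unadjusted p under 0.05 the counts were 1, FKBP5 itself, and 0.

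The genes beside the pair on chromosome 6 were read to see whether a wider stretch moved with it. They were the 3 nearest on each side whose symbol was matched in the count table, and genes without a matched symbol were not read. PTGFR, the prostaglandin F receptor, starts 48.1 kb after IFI44L and had a log2 fold change of 0.08 in G2 against G1 and 0.19 in G3 against G2. ADGRL4, an adhesion receptor of endothelium, ends 172 kb before IFI44 and had -0.07 and 0.12. Farther out, ADGRL2 (2269 kb before) had 0.20 and -0.15, and TTLL7 (4766 kb before) had -0.15 and 0.21. GIPC2 (450 kb after) had -0.08 and -0.05, and DNAJB4 (565 kb after), a co-chaperone, had -0.20 and -0.34. By edgeR, DESeq2 and limma voom 0 of these 6 neighbours were called, and 0 had an unadjusted p under 0.05 in G2 against G1 or G3 against G2. DNAJB4 did in G3 against G1, with a lower level in G3 at a log2 fold change of -0.55.

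Markers of other cells were read beside the members, since leukocytes and endothelium also express interferon-stimulated genes. In bulk tissue fewer cells of a type and less RNA per cell cannot be told apart. Of 18 leukocyte markers 17 were matched, and none was at 0 in every kidney of a group. Their summed level ran from 116.7 to 170.5 CPM in G1, from 116.9 to 198.6 CPM in G2 and from 132.6 to 167.4 CPM in G3, so the groups overlapped throughout. CD68 alone averaged 71.7, 71.3 and 73.3 CPM in G1, G2 and G3. The sum thus says little of the markers at lower levels. Of 7 endothelial markers 6 were matched, and they summed to between 699.8 and 803.4 CPM in G1, 566.5 and 1121 CPM in G2 and 574.3 and 1029 CPM in G3. By edgeR, DESeq2 and limma voom 0 leukocyte and 0 endothelial markers were called in any comparison, and at an unadjusted p under 0.05 1 leukocyte marker was higher in G2 than in G1 and 1 endothelial marker higher in G3 than in G1.

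With group means subtracted, IFI44 had r = -0.18 with the mean log2 CPM of the leukocyte markers (permutation p = 0.499, adjusted p = 0.718) and r = -0.18 with that of the endothelial markers (permutation p = 0.522, adjusted p = 0.718). IFI44L had r = -0.03 (permutation p = 0.921, adjusted p = 0.921) and r = -0.31 (permutation p = 0.250, adjusted p = 0.459). With the 5 proximal tubule markers r was 0.08 for IFI44 (permutation p = 0.775, adjusted p = 0.857) and -0.07 for IFI44L (permutation p = 0.779, adjusted p = 0.857). Spearman's rho lay between -0.23 and 0.18 in these 6 relations, with adjusted permutation p from 0.624 to 0.974. Without the 2 farthest kidneys, r of IFI44 was -0.39 with the leukocyte markers, -0.47 with the endothelial markers and 0.26 with the proximal tubule markers, and r of IFI44L was -0.02, -0.19 and -0.03. The 2 red cell markers matched of 3 had a median sum of 2.24 CPM in G1, 2.45 CPM in G2 and 1.28 CPM in G3, where it ran from 0.0948 to 1.96 CPM, and 1 of them was lower in G3 than in G2 at an unadjusted p under 0.05. The part of this in the members' levels was not tested.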

How the data were processed

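The authors trimmed adapters with cutadapt 4.0, aligned read pairs with STAR to Sscrofa11.1 and its gene annotation (Ensembl identifiers). The deposited values are raw counts of each gene in each kidney. The counting program and its strand setting are not given in the sources used here. The authors' second table, their DESeq2 comparison of G3 with G1 (fold changes and p-values), was not used. Symbols were known for 15093 of 26560 genes.

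Each pair of groups was fitted with edgeR 4.0.16 (quasi-likelihood test, TMM, Benjamini-Hochberg, threshold 0.05) on its own kidneys and on genes with at least 1 count, in R 4.3.3. DESeq2 1.42.0, limma 3.58.1 voom, other scalings, filters, covariates and each kidney left out were alternatives. The fit was tested on simulated data. log2 CPM used a prior count of 2. Python 3.11.15 with scipy 1.17.1 gave permutation tests. No pair of same-group kidneys agreed within counting error (chi-square per degree of freedom at least 21.4 over 40 pairs).

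The members and lists were chosen with earlier results of these data known. Genes named were the members, the 10 most alike, 3 neighbours a side, all detected receptors, transducers and FKBP5 partners, and of other lists those past a threshold and the extremes in G3 against G1. BST2 and ISG15 in G2 against G1, HSPA6, ETV7 and the genes without overlap were chosen after their values were seen. Of the genes this rule names, 2 are not reported here.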

Additional observations from a re-analysis of the deposited data

Results flagged for a closer look

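Dixon's test for a kidney standing apart from its own group was run on 21 groups of values (both members, their ratio and the means of 4 gene lists), where chance marks about 1 in 20. It marked 1, and no value of IFI44, IFI44L or their ratio was among them. The mean log2 CPM of the proximal tubule markers was 9.46 in G1 kidney 1, below the next lowest G1 kidney at 9.99. This kidney also had the lowest IFI44 and IFI44L of all 17, at 26.2 and 21.0 CPM, and the part of the marker level in that was not tested.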

How the results depend on the processing

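Over 9 alternatives that kept all kidneys or all paired numbers, the log2 fold changes of IFI44 kept their direction and side of the threshold, between 0.02 and 0.11 in G2 against G1 and between 0.75 and 0.94 in G3 against G2. Those of IFI44L ran from -0.29 to -0.13 and from 0.88 to 1.15, and DESeq2 called it in G3 against G2 (1.03, adjusted p = 0.00983, the lowest of its alternatives, whose highest was 1.00), and the cause was not tested. In G3 against G1, with no test, they ran from 0.77 to 0.97 for IFI44 and from 0.64 to 0.85 for IFI44L. Leaving out 1 kidney in turn gave 0.02 to 0.25 for IFI44 in G2 against G1, 0.76 to 0.96 in G3 against G2 and 0.85 to 1.11 in G3 against G1. For IFI44L these ranges were -0.27 to 0.0089, 0.95 to 1.15 and 0.75 to 1.04, and only leaving out G1 kidney 5 turned a direction. With 1 kidney left out the log2 ratio ran from -0.35 to -0.20 in G2 against G1 (adjusted p from 0.0317 to 0.286 in exact permutation tests), from 0.07 to 0.22 in G3 against G2 and from -0.20 to -0.08 in G3 against G1, and r of the pair from 0.78 to 0.89. The other alternatives for the ratio gave -0.35 to -0.27, 0.13 to 0.31 (the highest within code series) and -0.21 to -0.13 (the lowest from group medians). The overlap under library size alone was examined after seeing the data.

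The sample numbers are shared between groups, but same-numbered kidneys came from different animals, and correlations of their deviations ran from -0.26 to 0.44, so they were not taken as pairs. With a replicate block the log2 fold change of IFI44 was 0.08 in G2 against G1, 0.83 in G3 against G2 and 0.88 in G3 against G1, and that of IFI44L -0.13, 0.98 and 0.80, and no call of a member changed. In G3 against G1 the kidneys correlated best with their own number for 3 of 5 pairs. The block moved the genes with an adjusted p under 0.05 from 0 to 7 in G3 against G2 and from 2 to 9 in G3 against G1. That count was otherwise 1 with DESeq2 and 2 with the code series in G2 against G1, where 387 to 1215 genes had an unadjusted p under 0.05 in the fits with 0. It was 3 with DESeq2 and 5 without G2 kidney 2 in G3 against G2, with 341 to 929 such genes in the fits with 0. In G3 against G1 it was 31 with DESeq2, 11 with the code series, 1 with voom and with either stricter filter, 0 with all 3 groups in the fit and 0 to 9 with 1 kidney left out (9 without G1 kidney 5), with 990 to 1222 such genes in the fits with 0.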

Other observations

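The 15 genes with every G3 kidney above every G2 kidney, named here after their values were seen, held SP110 and SP140, nuclear body proteins of one family, at log2 fold changes of 0.56 and 0.43. They also held TAP2, a peptide transporter subunit (0.61), MORC3, a nuclear ATPase (0.54), and TIRAP, an adaptor of toll-like receptors (0.30). MORC3 was at rank 15 among the genes most like the pair, with r = 0.66 with IFI44 and 0.68 with IFI44L. ETV7, an interferon-induced repressor at rank 16, was closer to IFI44L (r = 0.88) than to IFI44 (r = 0.65). These are descriptions of 17 kidneys, with no test.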
